A study of Homo sapiens with 6 samples.

Results

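Transcripts of 66 genes, 64 for enzymes and related proteins of methyl transfer and demethylation and 2 pseudogenes, were followed in OVCAR8 cells, a human ovarian cancer line that the labels call high grade serous, after treatment with DZNep or silencing of EZH2. The genes were chosen by name: symbols that start with METTL, PRMT, KMT, SETD, DNMT, NSUN or KDM, together with EHMT1, EHMT2, SUV39H1, SUV39H2, DOT1L, NSD1, SETDB1, SMYD2, SMYD3, SMYD5 and CARM1, and without KDM6A and KDM6B. The name rule matched 85 symbols of the 14930 in the table, and 66 of them reached a value of 10 in 2 or more of the 6 samples. The same filter kept 9671 genes of the whole table.

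Methyltransferases take the methyl group from S-adenosylmethionine and leave S-adenosylhomocysteine, which inhibits them until it is split by the hydrolase AHCY. DZNep (3-deazaneplanocin A) inhibits that hydrolase, so that S-adenosylhomocysteine builds up and methylation of many substrates is reduced. The study also reports lower EZH2 protein after DZNep by immunoblot, so lower EZH2 is not particular to shEZH2. The hairpin of shEZH2 is directed at a single enzyme, the histone H3 lysine 27 methyltransferase of Polycomb repressive complex 2. Histone lysine methylation is reversed by the flavin-dependent KDM1 oxidases and by the JmjC demethylases, which use iron, oxygen and 2-oxoglutarate. The comparisons ask how the transcripts of the other enzymes of this chemistry stood after the inhibitor and after silencing of EZH2.

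Each of the 3 groups had 2 replicates, collected at 72 hours. Control cells were compared with cells given DZNep at 5 μM and with cells that carry a doxycycline-inducible hairpin against EZH2 and were given 1 μg/mL doxycycline. These units are those of the methods of the study, while the sample labels print both doses in units larger by the factor that separates milli from micro. The labels do not say whether the control cells carried the hairpin construct, and no doxycycline-treated control hairpin is among the samples, so silencing and doxycycline cannot be told apart. Nothing in the labels says that the replicates came from separate cultures, and p-values then measure only the spread between these samples, which may be technical.

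The values are whole numbers that sum to between 999956 and 1000068 in every sample, so they are scaled values and not read counts, the depth is unknown, and a value is read only against the same gene in another sample. The 2 shEZH2 samples were closer to each other than the samples of the other groups: the standard deviation of the replicate difference over the 66 genes was 0.14 on the log2 scale in shEZH2, 0.35 in control and 0.37 in DZNep. The epithelial keratins KRT8 and KRT18 were at 816 or more in every sample, the Müllerian factor PAX8 was at 10 to 19, WT1 was at 1 or 2 and MUC16 was not listed. Of the other epithelial markers looked up, KRT7 was at 350 to 597, but EPCAM was only at 5 to 12 and CDH1 at 0 to 8. Marker levels differed between the groups. KRT8 read 1021 and 816 in control, 3540 and 3046 with DZNep and 1484 and 1494 with shEZH2. MSLN went the other way, with 176 and 150, 45 and 36, and 102 and 95. Of 9 markers of leukocytes, endothelium, red cells and hepatocytes 4 were listed, 3 of them at 4 or less. CD68, which carcinoma lines can also express, read 70 and 65 in control, 18 and 15 with DZNep and 32 and 28 with shEZH2. The part of these marker levels in the results below was not tested.

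The hairpin is shown because it defines the shEZH2 group. Its guide strand, written 5′ to 3′ with bases 2 to 8, the seed, in capitals, was:
guide strand of the EZH2 hairpin: tAATGGGAtgacttgtgttgg
The 21 bases paired in full with 1 of 9474 canonical transcripts of tested genes, that of EZH2, at chr7:148832703-148832723 (GRCh38) in the coding part of exon 4. The 7-base seed match TCCCATT occurred in 22.0% of those transcripts and in 11 of the 64 members that could be matched to GENCODE v44: CARM1, DNMT3A, KDM5A, KMT2A, KMT2D, METTL4, SETD2, SETD5, SETD7, SETDB1 and SMYD5. None of the 3 members called in the shEZH2 comparison is among them, but 3 calls are too few to judge by, and seed effects were not tested. EZH2 itself read 36 and 42 in the control samples, 26 and 26 in the DZNep samples and 18 and 18 in the shEZH2 samples. Its value was thus lowest in the silenced cells, intermediate in DZNep and highest in control, with no overlap. The log2 fold change of EZH2 was -1.12 with shEZH2 (95% interval -1.54 to -0.70, adjusted p = 0.016) and -0.63 with DZNep (-1.05 to -0.21, adjusted p = 0.026).

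With DZNep, 16 of the 66 members rose (24.2%) and 9 fell (13.6%) at an adjusted p under 0.05, beside 22.4% higher and 20.4% lower among all genes tested. The members that rose were CARM1, DOT1L, METTL1, METTL13, METTL16, METTL17, METTL2A, NSUN5, NSUN5P1, NSUN5P2, PRMT6, SETD6, SETD8, SETDB1, SMYD5 and SUV39H1. Of these, NSUN5P2 passed the value filter only through DZNep, and DOT1L and SMYD5 only through treated samples. Some rise of NSUN5P2, DOT1L and SMYD5 was thus built into their selection. The members that fell were DNMT3B, KDM4C, METTL12, METTL23, METTL4, METTL9, PRMT2, PRMT3 and PRMT9. The share that rose was near the background, and the members as a list moved less than the table: the median absolute log2 fold change was 0.42 over members and 0.53 over all genes tested. The signed median was 0.07 over members and 0.02 over all.

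With shEZH2, SETD8 rose (1.52% of members) and METTL12 and METTL23 fell (3.03%), beside 3.91% higher and 4.53% lower among all genes tested. The median log2 fold change was 0.13 over members and -0.01 over all, and the median absolute value was 0.28 and 0.31. Between shEZH2 and DZNep, METTL23 was higher in shEZH2 and no member was lower, beside backgrounds of 4.88% and 4.42%. For 4 members higher and 8 lower limma gave an unadjusted p under 0.05, beside 27.4% of all genes in both directions together. By the thresholds of the methods of the study, an absolute log2 fold change above 1 with an unadjusted P under 0.05, METTL1, METTL13 and NSUN5P2 were higher and METTL12, METTL23 and PRMT3 lower with DZNep, beside 10.5% and 11.8% of all genes. By the same thresholds DOT1L was higher and METTL12 and METTL23 lower with shEZH2, beside 2.27% and 3.03%, and no member passed between shEZH2 and DZNep.

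**Figure D1:**
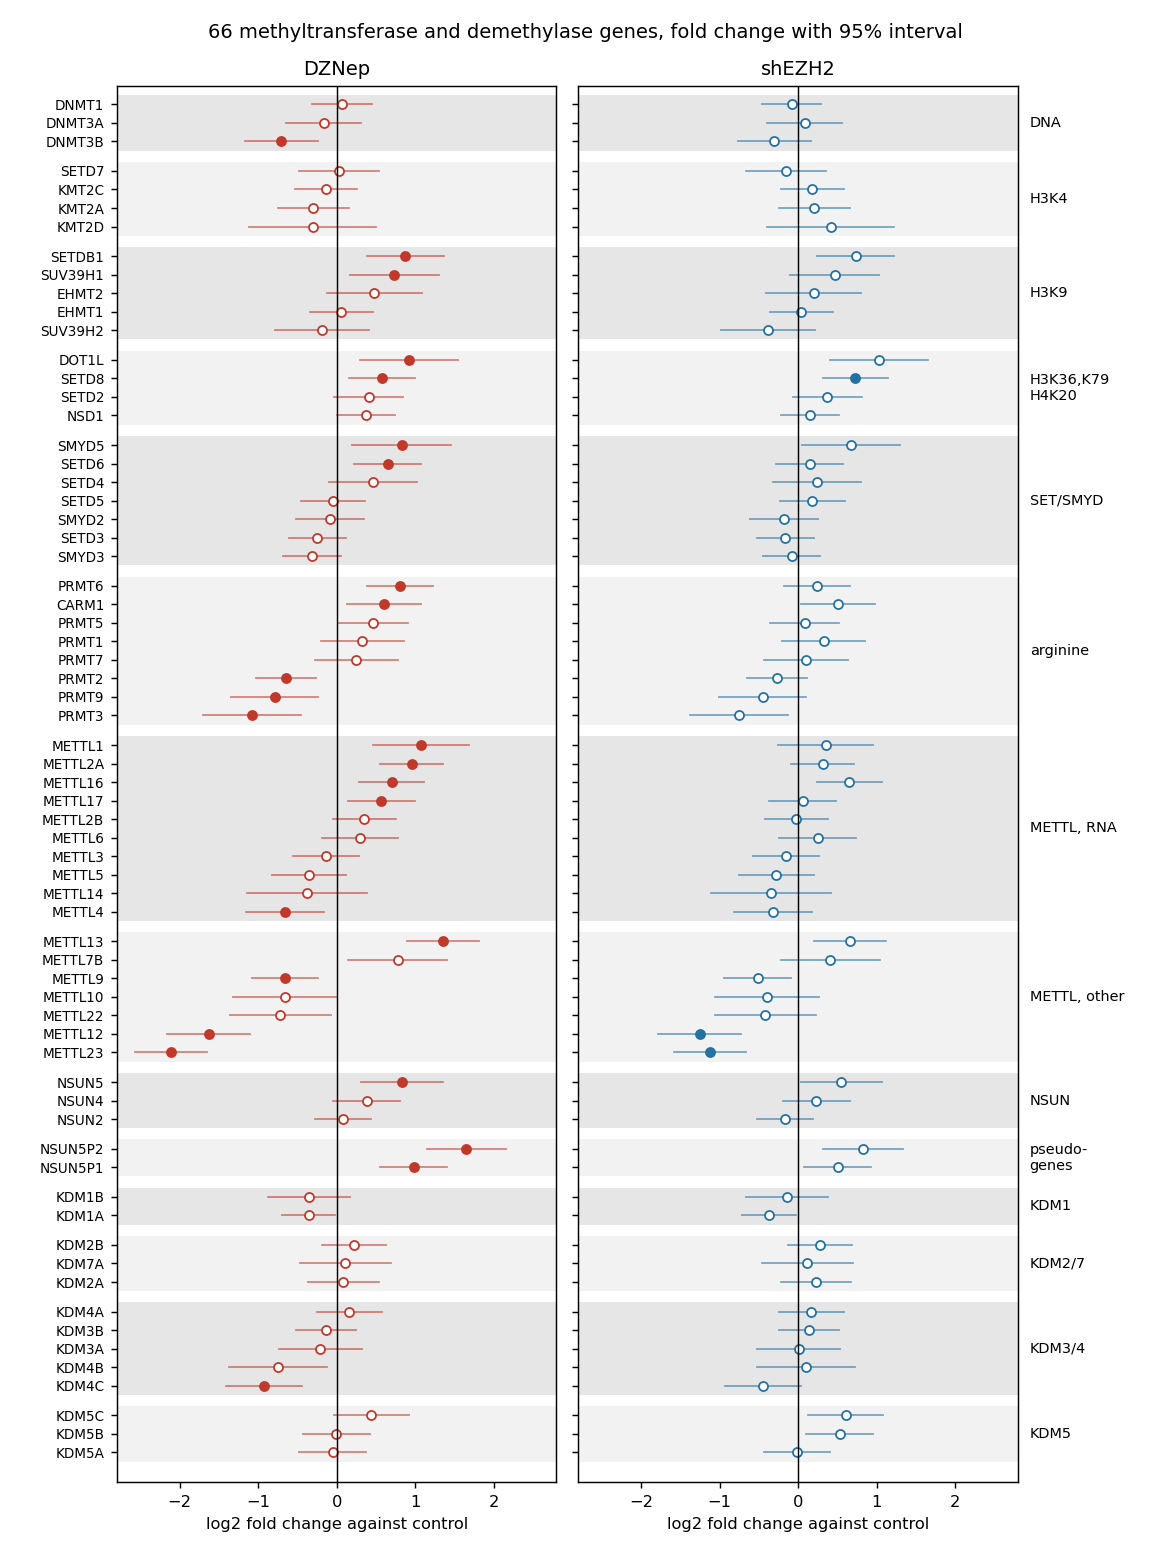
Log2 fold change against control (x axis) of each of the 66 members (rows, grouped by role) with DZNep (left) and shEZH2 (right); points are estimates, lines 95% intervals, and filled points have an adjusted p under 0.05. Filled points number 25 on the left and 3 on the right, and METTL23 at -2.11 and NSUN5P2 at 1.65 are the ends of the DZNep range. NSUN5P2 passed the value filter only through DZNep, so that some rise was built into its selection.

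The counts rest on few samples. Without control replicate 2 or without DZNep replicate 1 the members called higher with DZNep fell from 16 to 5, and without control replicate 2 those called lower fell from 9 to 6. Leaving out shEZH2 replicate 1 or 2, which enter the shared estimate of the spread, gave 9 higher and 4 lower in the DZNep comparison. With shEZH2 the higher calls were 5 without control replicate 1, 6 without DZNep replicate 1 or 2, and 0 without control replicate 2 or either shEZH2 replicate. The lower calls with shEZH2 were 3 without control replicate 1, 1 without control replicate 2 and 0 without either shEZH2 replicate. Between shEZH2 and DZNep, METTL23 was no longer called without DZNep replicate 2 or either shEZH2 replicate; METTL13, METTL2A and NSUN5P2 were called lower without either control replicate, and KDM4B higher without DZNep replicate 1. Across 18 alternatives the DZNep calls of KDM4C, METTL12, METTL13, METTL23, METTL2A and PRMT6 were kept in 18, those of DOT1L, METTL1, NSUN5, PRMT3 and SETDB1 in 16, and those of PRMT2, DNMT3B, METTL16, METTL9, PRMT9, SETD6, SUV39H1, CARM1, METTL17, SETD8, METTL4 and SMYD5 in 9 to 13; NSUN5P1 and NSUN5P2 kept theirs in 16 of the 16 that could be fitted. On the values as deposited, with no further scaling, the split of calls was 19 higher and 5 lower with DZNep, 7 higher and 2 lower with shEZH2, and 1 higher and 4 lower between shEZH2 and DZNep. With the 2 shEZH2 samples averaged to 1, 9 members were higher and 4 lower with DZNep and none was called with shEZH2 by limma.

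**Figure D2:**
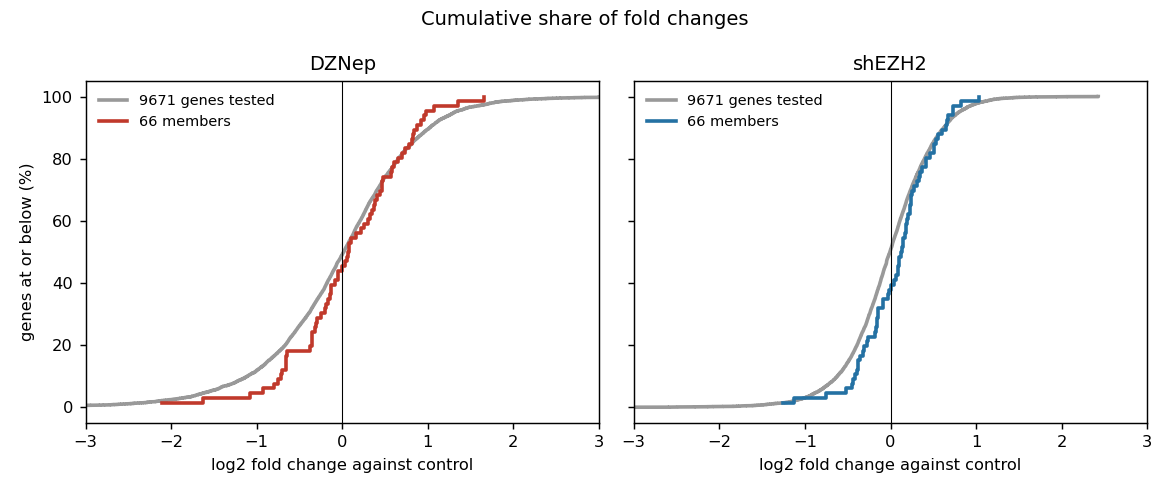
Cumulative share of genes (y axis, percent) at or below each log2 fold change against control (x axis) for the 66 members (coloured) and all 9671 genes tested (grey), with DZNep (left) and shEZH2 (right). The member curve is steeper with DZNep, where the median absolute log2 fold change was 0.42 against 0.53, and lies to the right of the grey curve near 0 with shEZH2, where the medians were 0.13 and -0.01.

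METTL23 and METTL12 fell in both comparisons, and both act on proteins. METTL23, which methylates histone H3 on arginine, lies at chr17:76726830-76733936 on the plus strand (GRCh38, GENCODE v44). It read 39 and 55 in the control samples, 10 and 11 in the DZNep samples and 23 and 20 in the shEZH2 samples. The 3 groups did not overlap, with DZNep lowest and shEZH2 between DZNep and control. The log2 fold change of METTL23 was -2.11 with DZNep (SE 0.20, 95% interval -2.57 to -1.65, adjusted p = 0.00024) and -1.12 with shEZH2 (SE 0.20, -1.58 to -0.67, adjusted p = 0.019). The direct comparison differed too, by 0.99 in favour of shEZH2 (SE 0.20, 0.53 to 1.44, adjusted p = 0.024). The DZNep call was kept in 18 of 18 alternative fits and the shEZH2 call in 14.

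METTL12 is the older symbol of CSKMT, the mitochondrial enzyme that methylates citrate synthase, at chr11:62665309-62668496 on the plus strand. It read 25 and 26 in the control samples, 9 and 7 in the DZNep samples and 11 and 10 in the shEZH2 samples. Both treated groups lay below both controls, and the DZNep values lay just under the shEZH2 values. The log2 fold change of METTL12 was -1.63 with DZNep (SE 0.23, -2.16 to -1.10, adjusted p = 0.0012) and -1.25 with shEZH2 (SE 0.23, -1.78 to -0.72, adjusted p = 0.021). Its difference of 0.38 between shEZH2 and DZNep had an interval of -0.15 to 0.91 (adjusted p = 0.33). The DZNep call was kept in 18 of 18 alternatives and the shEZH2 call in 15.

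METTL13 moved the other way. It methylates the elongation factor eEF1A and lies at chr1:171781660-171814023 on the plus strand. Its values were 22 and 19 in the control samples, 56 and 57 in the DZNep samples and 33 and 35 in the shEZH2 samples. The 3 groups were again separate, now with DZNep highest. METTL13 rose by 1.35 on the log2 scale with DZNep (SE 0.20, 0.89 to 1.81, adjusted p = 0.0015) and the call was kept in 18 of 18 alternatives. With shEZH2 the value was 0.66 (0.20 to 1.12) and did not pass (adjusted p = 0.077), and the direct comparison gave -0.69 (-1.15 to -0.23, adjusted p = 0.067).

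Promoter windows of these 3 genes are shown because they carry the members with the largest falls and the protein methyltransferase with the largest rise. Each runs from 250 bases before to 50 after the start of the canonical transcript, was read from GRCh38 and is written 5′ to 3′ on the strand of the gene. Capitals mark matches, on either strand, to the CCAAT box (CCAAT), the GC box (GGGCGG), the ETS core (CCGGAAG), the E-box (CACGTG), the CRE (TGACGTCA) and the NRF1 motif (GCGCATGC); none of these motifs contains another, and adjacent GC boxes run together.
METTL23, chr17:76726589-76726888: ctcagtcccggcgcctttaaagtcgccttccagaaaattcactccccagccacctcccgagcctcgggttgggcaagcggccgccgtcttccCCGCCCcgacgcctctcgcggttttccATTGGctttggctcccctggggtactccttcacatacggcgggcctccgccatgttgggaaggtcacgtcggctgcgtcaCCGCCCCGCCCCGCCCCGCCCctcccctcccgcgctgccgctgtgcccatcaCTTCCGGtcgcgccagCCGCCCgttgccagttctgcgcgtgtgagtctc
METTL12, chr11:62665062-62665361: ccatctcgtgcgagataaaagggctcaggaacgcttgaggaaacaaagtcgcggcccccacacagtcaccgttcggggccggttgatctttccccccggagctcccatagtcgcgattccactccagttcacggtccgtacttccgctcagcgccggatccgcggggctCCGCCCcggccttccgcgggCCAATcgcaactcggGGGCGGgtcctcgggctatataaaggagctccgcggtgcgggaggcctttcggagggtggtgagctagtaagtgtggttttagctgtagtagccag
METTL13, chr1:171781410-171781709: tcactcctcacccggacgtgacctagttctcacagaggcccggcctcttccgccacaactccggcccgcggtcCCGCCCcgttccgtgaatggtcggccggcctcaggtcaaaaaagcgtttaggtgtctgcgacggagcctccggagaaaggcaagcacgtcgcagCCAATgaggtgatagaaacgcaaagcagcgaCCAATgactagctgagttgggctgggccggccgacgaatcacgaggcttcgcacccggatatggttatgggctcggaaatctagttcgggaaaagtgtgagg
The METTL23 window held 8 matches, to the GC box, the CCAAT box and the ETS core, with 69.0% GC and 33 CpG. METTL12 and METTL13 had 3 matches each, to the GC box and the CCAAT box, with 63.0% and 60.3% GC. Over 9474 windows of tested genes the GC box occurred in 76.6%, the CCAAT box in 37.1%, the ETS core in 21.4%, the E-box in 10.8%, the NRF1 motif in 6.4% and the CRE in 3.94%. Among the 64 member windows the counts in the same order were 49, 24, 17, 9, 5 and 2. The CCAAT box was in 7 of 14 windows of members that rose with DZNep and in 4 of 9 of those that fell. A match describes the letters only.

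The start of METTL23 lies 31 bases from that of JMJD6, which runs on the other strand and encodes a JmjC-family hydroxylase. JMJD6 is no member, and it was looked up after its values and those of METTL23 had been seen. It read 40 and 35 in the control samples, 77 and 76 in the DZNep samples and 56 and 53 in the shEZH2 samples, so its order was the reverse of that of METTL23. JMJD6 gave a log2 fold change of 0.94 with DZNep (0.50 to 1.39, adjusted p = 0.0062) and 0.48 with shEZH2 (adjusted p = 0.15).

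**Figure D3:**
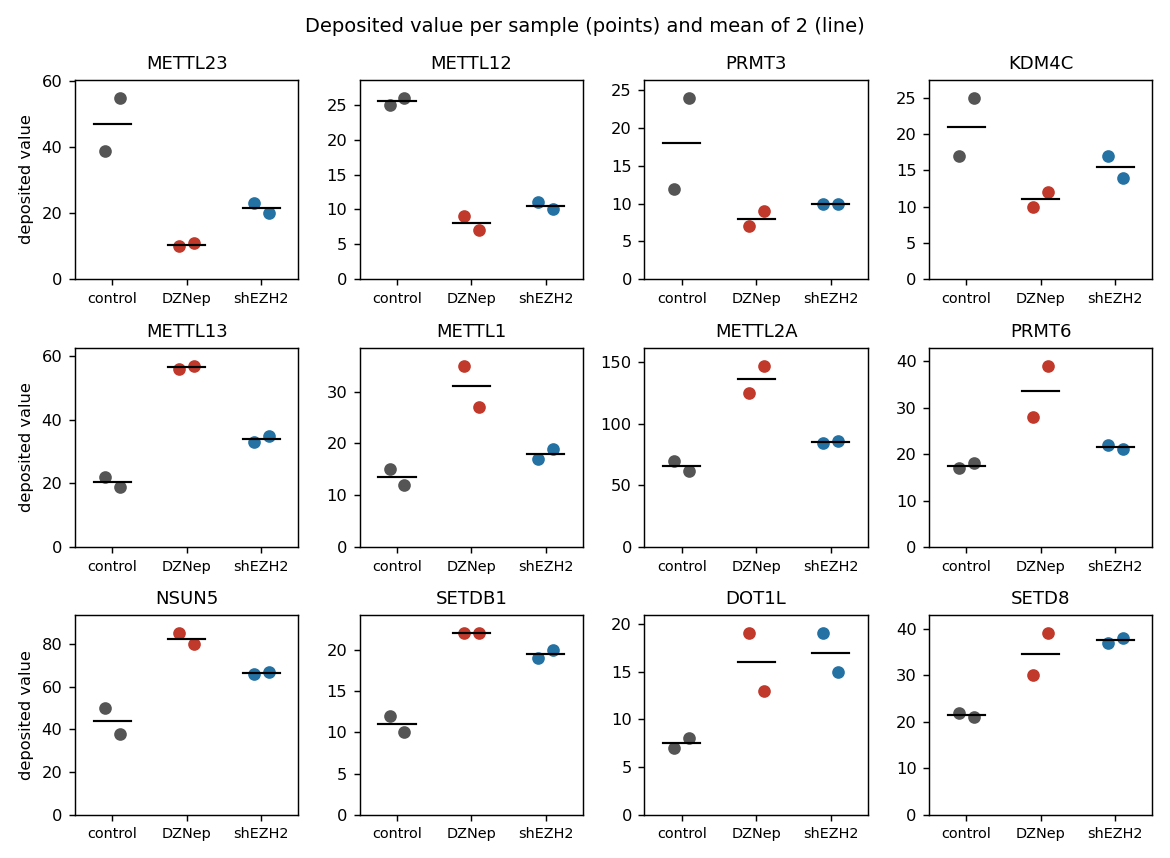
Deposited value (y axis, scaled whole number, starting at 0) of 12 members in each sample (points) with the mean of the 2 replicates (line) in control, DZNep and shEZH2. METTL23, METTL12, PRMT3 and KDM4C are below both controls with DZNep, the other 8 are above both, and SETD8 and DOT1L have shEZH2 means above their DZNep means.

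The remaining METTL proteins that act on proteins or small molecules gave smaller differences. METTL9, a histidine methyltransferase, fell with DZNep by 0.66 on the log2 scale (adjusted p = 0.022), from 53 and 60 in control to 30 and 46. METTL22 (adjusted p = 0.070) and METTL10 (adjusted p = 0.098), the latter now named EEF1AKMT2, did not pass. After scaling both were lower in both DZNep samples than in both controls. As deposited METTL10 overlapped, with 12 and 20 in control and 7 and 14 in DZNep. METTL7B, a thiol methyltransferase, read 7 and 5 in the control samples and 13 and 10 in the DZNep samples and entered the list only through its DZNep values, so that some difference (0.78, adjusted p = 0.052) was built into its selection. In this group of 7 members 1 rose and 3 fell with DZNep, beside 22.4% and 20.4% of all genes, and 2 fell with shEZH2, beside 4.53%.

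Among the METTL enzymes of RNA, 4 of 10 rose and 1 fell with DZNep, beside 22.4% and 20.4% of all genes, and limma called none with shEZH2. Without control replicate 2, or without DZNep replicate 1, METTL2A was the only one of them called. METTL1, which places 7-methylguanosine in tRNA, read 15 and 12 in the control samples, 35 and 27 in the DZNep samples and 17 and 19 in the shEZH2 samples. Only the DZNep samples stood well apart from control. METTL1 rose by 1.07 on the log2 scale with DZNep (SE 0.26, 0.46 to 1.68, adjusted p = 0.014) and gave 0.35 with shEZH2 (-0.26 to 0.96, adjusted p = 0.42). WDR4, its partner subunit and no member, read 9 and 9 in the control samples and 16 and 16 in the DZNep samples (log2 fold change 0.70, adjusted p = 0.027). Only treated samples of WDR4 reached the filter value of 10, so that some rise was built into its testing.

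METTL2A, a 3-methylcytidine enzyme of tRNA, read 70 and 62 in the control samples, 125 and 147 in the DZNep samples and 84 and 86 in the shEZH2 samples. The DZNep values were the highest and the shEZH2 values lay between, without overlap. METTL2A rose by 0.96 with DZNep (0.56 to 1.36, adjusted p = 0.0037) and was called in 18 of 18 alternatives. Its near copy METTL2B read 30 and 29 in the control samples and 36 and 44 in the DZNep samples and did not pass (0.35, adjusted p = 0.14). Reads shared by METTL2A and METTL2B could be split between them in counting, so the separate values are uncertain.

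METTL16, which methylates U6 snRNA and the MAT2A transcript, rose from 23 and 23 in control to 39 and 41 in DZNep (log2 fold change 0.70, adjusted p = 0.016) and read 37 and 39 in shEZH2 (0.65, adjusted p = 0.061). Here the treated groups overlapped each other, and both lay above control. METTL17, a mitochondrial ribosome assembly factor, rose with DZNep from 95 and 86 to 144 and 139 (0.57, adjusted p = 0.039), whereas its shEZH2 values of 97 and 98 gave 0.06 (adjusted p = 0.85). METTL4, an N6-adenine methyltransferase of U2 snRNA, fell with DZNep from 13 and 18 to 8 and 12 (-0.66, adjusted p = 0.038), a call kept in 9 of 18 alternatives.

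The catalytic pair of the m6A writer was not called in the main fit. With the length and GC correction described below METTL3 was called lower with DZNep (-0.44, adjusted p = 0.020), and METTL14 was at 0.01 (adjusted p = 0.95). METTL3 read 57 and 52 in the control samples, 46 and 59 in the DZNep samples and 48 and 53 in the shEZH2 samples, and METTL14, its partner, 19 and 36, 14 and 31, and 21 and 21. The groups overlapped for both genes. The intervals with DZNep were -0.55 to 0.29 for METTL3 and -1.15 to 0.38 for METTL14, and the replicate difference of METTL14 was the largest of any member in DZNep, at 0.85. Of 7 tested partners of the writer and related enzymes 4 rose with DZNep (WTAP, RBM15, RBM15B and PCIF1) and none fell, beside 22.4% and 20.4% of all genes. Their log2 fold changes ran from 0.58 for RBM15 to 0.93 for PCIF1, and WTAP passed narrowly (adjusted p = 0.046).

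NSUN5, which methylates a cytosine of 28S rRNA, read 50 and 38 in the control samples, 85 and 80 in the DZNep samples and 66 and 67 in the shEZH2 samples. Its order of groups was that of METTL13, without overlap. NSUN5 rose by 0.83 with DZNep (SE 0.22, 0.32 to 1.35, adjusted p = 0.019) and gave 0.55 with shEZH2 (adjusted p = 0.16). The 2 copies of the gene listed as pseudogenes had the same order. NSUN5P1 read 14 and 14 in the control samples, 29 and 31 in the DZNep samples and 22 and 20 in the shEZH2 samples, which is 0.98 on the log2 scale with DZNep (adjusted p = 0.0044). NSUN5P2 read 5 and 4 in the control samples, 17 and 17 in the DZNep samples and 9 and 9 in the shEZH2 samples, which is 1.65 on the log2 scale with DZNep (SE 0.22, 1.15 to 2.16, adjusted p = 0.00094) and of 0.83 with shEZH2 (0.32 to 1.33, adjusted p = 0.056). NSUN5P2 passed the filter only through DZNep, and reads of the 3 near-identical loci could be split among them, so their rises are not separate evidence. NSUN2 (0.08) and NSUN4 (0.38), which methylate other RNAs, did not pass with DZNep.

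Of the 8 arginine methyltransferases 2 rose and 3 fell with DZNep, beside 22.4% and 20.4% of all genes, and limma called none with shEZH2. The counts were 1 and 1 without control replicate 2, 1 and 2 without DZNep replicate 1, 1 and 1 without shEZH2 replicate 1 and 4 and 2 without control replicate 1. PRMT3, which methylates a ribosomal protein of the small subunit, lies at chr11:20387558-20509338 on the plus strand and read 12 and 24 in the control samples, 7 and 9 in the DZNep samples and 10 and 10 in the shEZH2 samples. The treated values were below both controls, and the 2 controls themselves differed by a factor near the effect. The log2 fold change of PRMT3 was -1.08 with DZNep (SE 0.27, -1.70 to -0.45, adjusted p = 0.015). It was -1.47 without control replicate 1 and -0.68 without control replicate 2, the control that decides its size and without which the call is lost.

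PRMT6, which methylates histone H3 at arginine 2, read 17 and 18 in the control samples, 28 and 39 in the DZNep samples and 22 and 21 in the shEZH2 samples, and rose with DZNep (0.81, SE 0.18, 0.39 to 1.23, adjusted p = 0.0093) in 18 of 18 alternatives. CARM1, the coactivator enzyme also named PRMT4, rose from 31 and 29 to 51 and 46 (0.60, adjusted p = 0.044) and read 43 and 46 in shEZH2 (0.51, adjusted p = 0.15). PRMT2 fell from 68 and 66 to 40 and 50 (-0.64, adjusted p = 0.017) and PRMT9, which methylates a splicing factor, from 15 and 22 to 8 and 14 (-0.79, adjusted p = 0.030). The samples of each of these genes separated DZNep from control. The main asymmetric and symmetric enzymes were not called: PRMT1 read 169 and 121 in the control samples and 189 and 188 in the DZNep samples (0.32, -0.21 to 0.85), and PRMT5 read 286 and 240 in the control samples and 384 and 376 in the DZNep samples (0.46, 0.02 to 0.91, adjusted p = 0.086). CLNS1A, the PRMT5 adaptor pICln and no member, fell from 153 and 196 in control to 65 and 92 in DZNep (-1.22, adjusted p = 0.0012) and to 106 and 109 in shEZH2 (-0.73, adjusted p = 0.040).

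Of the 20 tested histone lysine methyltransferases and SET or SMYD proteins 6 rose with DZNep. They include DOT1L and SMYD5, which reached the filter value of 10 only in treated samples. The group of 20 had 0 falls, and of all genes 22.4% rose and 20.4% fell. No gene of this group was called without control replicate 2 or without DZNep replicate 1, and with the length and GC correction described below 7 were higher and 2 lower. At H3K9, SETDB1, the enzyme that silences retroelements with KAP1, read 12 and 10 in the control samples, 22 and 22 in the DZNep samples and 19 and 20 in the shEZH2 samples. Both treated groups lay above both controls. SETDB1 rose by 0.88 with DZNep (SE 0.21, 0.38 to 1.37, adjusted p = 0.013) and stood at 0.73 with shEZH2 (0.24 to 1.23, adjusted p = 0.070). SUV39H1, which trimethylates H3K9 in heterochromatin, rose from 16 and 15 to 32 and 24 (0.73, adjusted p = 0.043), a value of 0.41 without DZNep replicate 1 and a call kept in 11 of 18 alternatives. SUV39H2 (-0.19), EHMT1 (0.06) and EHMT2 (0.48, adjusted p = 0.18), the last 2 forming the G9a/GLP dimer, did not pass.

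The called enzymes of H3K79 and H4K20 had mean values with shEZH2 at least as high as with DZNep. SETD8, now named KMT5A, monomethylates H4K20 and read 22 and 21 in the control samples, 30 and 39 in the DZNep samples and 37 and 38 in the shEZH2 samples. It was the only member called higher with shEZH2 (0.73, SE 0.18, 0.31 to 1.15, adjusted p = 0.048), a call kept in 12 of 18 alternatives, and it also rose with DZNep (0.58, adjusted p = 0.034, kept in 10 of 18). DOT1L, the H3K79 methyltransferase, read 7 and 8 in the control samples, 19 and 13 in the DZNep samples and 19 and 15 in the shEZH2 samples. Treated and control values did not overlap, but the treated replicates spread widely. Only treated samples reached the filter value of 10, so that some rise of DOT1L was built into its selection. DOT1L rose with DZNep (0.92, SE 0.27, 0.29 to 1.54, adjusted p = 0.028), and its larger value with shEZH2 (1.03, 0.41 to 1.66) did not pass (adjusted p = 0.055). Without DZNep replicate 1 the DZNep value of DOT1L was 0.54 and not called. Directly between shEZH2 and DZNep the intervals were -0.27 to 0.57 for SETD8 and -0.51 to 0.74 for DOT1L. The H3K36 enzymes SETD2 (0.41) and NSD1 (0.38) had both DZNep samples above both controls and did not pass (adjusted p = 0.12 and 0.093).

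No H3K4 methyltransferase was called. KMT2D, a monomethyltransferase of enhancers and the member with the longest transcript, read 24 and 14 in the control samples, 17 and 14 in the DZNep samples and 33 and 20 in the shEZH2 samples, and its replicates differed more than those of any other member in control and in shEZH2. KMT2A read 41 and 45, 29 and 46, and 56 and 47, and its interval with DZNep was -0.75 to 0.16. Their values therefore bound the change loosely. Of the 8 symbols of this role 4 were tested, since KMT2B, KMT2E, SETD1A and SETD1B stayed under the filter. Among the SET and SMYD proteins with other or debated substrates, SMYD5 rose with DZNep from 7 and 8 to 18 and 12 (0.83, adjusted p = 0.040; 0.43 without DZNep replicate 1, kept in 9 of 18 alternatives) and SETD6, which methylates the RELA subunit of NF-κB, from 9 and 11 to 16 and 18 (0.65, adjusted p = 0.025).

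Of the 3 DNA methyltransferases only DNMT3B, a de novo enzyme, was called. It read 34 and 31 in the control samples, 21 and 20 in the DZNep samples and 28 and 26 in the shEZH2 samples, with shEZH2 between the other groups and no overlap. DNMT3B fell by 0.71 on the log2 scale with DZNep (SE 0.20, -1.17 to -0.24, adjusted p = 0.024), and the value with shEZH2 was -0.31 (-0.77 to 0.16, adjusted p = 0.36). The maintenance enzyme DNMT1 read 219 and 232 in the control samples, 252 and 244 in the DZNep samples and 229 and 211 in the shEZH2 samples, with intervals of -0.32 to 0.45 and -0.47 to 0.30. DNMT3A read 14 and 15, 14 and 13, and 15 and 17. UHRF1, the partner that brings DNMT1 to replicating DNA, rose with DZNep from 140 and 148 to 264 and 303 (0.90, adjusted p = 0.0025).

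Of the 13 demethylases 1 was called, lower, with DZNep, beside 20.4% of all genes, and none with shEZH2 by limma. With the length and GC correction KDM1A and KDM4B were also lower and KDM7A higher with DZNep, and KDM1A was lower and KDM5B and KDM5C higher with shEZH2. KDM4C, a JmjC demethylase of H3K9 and H3K36, read 17 and 25 in the control samples, 10 and 12 in the DZNep samples and 17 and 14 in the shEZH2 samples. Its DZNep values were below all others. Its shEZH2 values reached the lower control as deposited and lay below both controls after scaling. KDM4C fell by 0.92 with DZNep (SE 0.21, -1.41 to -0.44, adjusted p = 0.0098) in 18 of 18 alternatives. Its paralogue KDM4B read 33 and 31 in the control samples, 24 and 16 in the DZNep samples and 37 and 34 in the shEZH2 samples and did not pass (-0.75, adjusted p = 0.056), and KDM4A was at 0.16.

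KDM1A (LSD1), which demethylates mono- and dimethylated H3K4, read 211 and 226 in the control samples, 169 and 189 in the DZNep samples and 175 and 173 in the shEZH2 samples. Both treated groups were below control, and neither value passed (-0.36, adjusted p = 0.086, and -0.37, adjusted p = 0.15), but both passed with the length and GC correction, at -0.65 (adjusted p = 0.00034) and -0.51 (adjusted p = 0.0037). The H3K4me3 demethylase KDM5B read 33 and 42 in the control samples, 40 and 38 in the DZNep samples and 57 and 55 in the shEZH2 samples, higher in shEZH2 than in either other group (0.53 with shEZH2, 0.10 to 0.96, adjusted p = 0.11). KDM5C read 39 and 36, 58 and 50, and 62 and 57, with 0.44 for DZNep (adjusted p = 0.12) and 0.60 for shEZH2 (adjusted p = 0.11). KDM2B, an H3K36 demethylase that binds CpG islands, was at 0.22 and 0.27. For the DZNep comparison the demethylase with the largest rise was thus KDM5C, under the threshold.

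**Figure D4:**
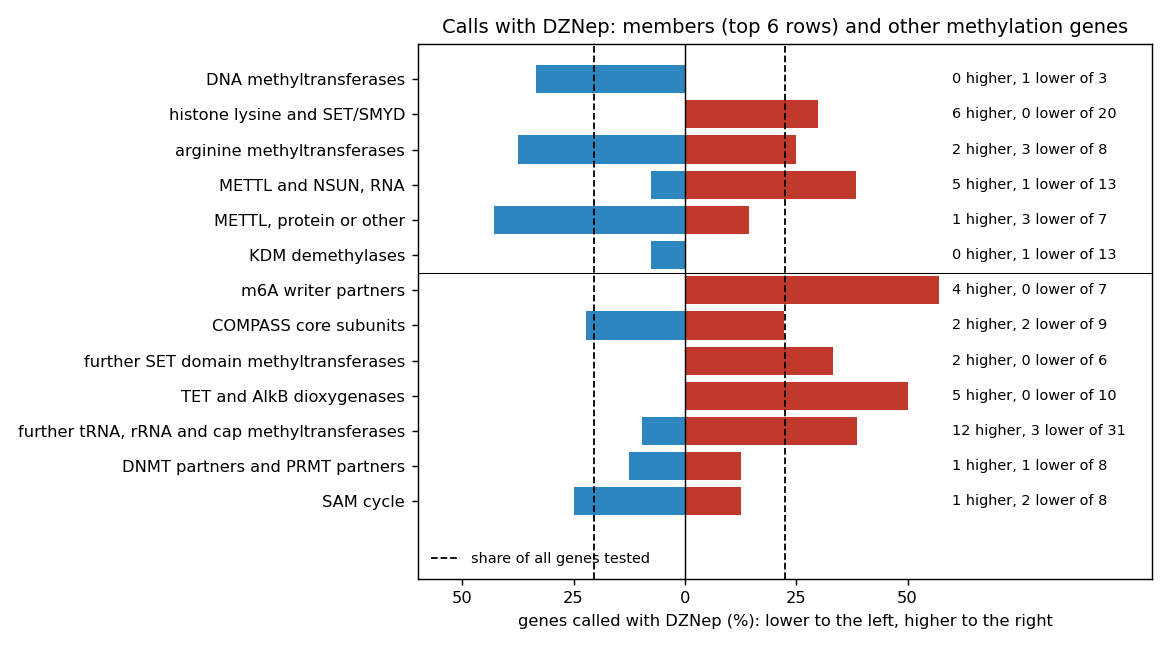
Share of tested genes called with DZNep (x axis, percent; higher to the right, lower to the left) in 6 role groups holding 64 members, without the 2 NSUN5 pseudogenes, and in 7 lists of other methylation genes; dashed lines are the shares over all genes tested, 22.4% and 20.4%. Histone lysine and SET/SMYD enzymes show 6 higher and 0 lower of 20, and KDM demethylases 0 higher and 1 lower of 13; the 6 become 0 without control replicate 2 or DZNep replicate 1, and with length and GC correction the demethylases become 1 higher and 3 lower.

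Genes of the same chemistry outside the name rule were read from 7 lists with 94 symbols, 79 of them tested, of which 27 rose and 8 fell with DZNep, beside 22.4% and 20.4% of all genes, and 2 rose and 2 fell with shEZH2, beside 3.91% and 4.53%. The DZNep counts were 14 and 7 without control replicate 2, 18 and 7 without DZNep replicate 1 and 16 and 6 without shEZH2 replicate 1, and with shEZH2 none was called by limma without control replicate 2 or either shEZH2 replicate. Of 31 further methyltransferases of tRNA, rRNA and the mRNA cap 12 rose and 3 fell, with a median log2 fold change of 0.48. TRMT61A, the catalytic subunit of the tRNA 1-methyladenosine enzyme, read 16 and 14 in the control samples, 114 and 97 in the DZNep samples and 32 and 32 in the shEZH2 samples, which gave 2.66 with DZNep (adjusted p = 0.00015) and 1.00 with shEZH2 (adjusted p = 0.034). Its rise was larger than that of any member. NOP2, the NSUN-family enzyme of 28S rRNA that the name rule leaves out, rose by 2.04 and HENMT1, which methylates the ends of small RNAs, by 1.43. MRM3, listed as RNMTL1, a mitochondrial rRNA enzyme, rose by 1.08. TRMT2B (-1.53), TARBP1 (-1.04) and TRMT61B (-1.03) fell. TRMT61B passed the value filter only through the control samples, so that some fall was built into its testing.

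The TET and AlkB dioxygenases use the cofactors that JmjC enzymes use. Of the 10 tested 5 rose and 0 fell with DZNep, beside 22.4% and 20.4% of all genes, with a median of 0.61. ALKBH2 (1.47), ALKBH4 (1.35), ALKBH1 (1.01), TET3 (1.01) and the m6A demethylase ALKBH5 (0.82) were the 5. TET3 reached the filter value of 10 only with DZNep and ALKBH4 only in treated samples, so that some rise was built into their testing. In the S-adenosylmethionine cycle, methionine synthase MTR read 56 and 98 in the control samples, 23 and 33 in the DZNep samples and 47 and 45 in the shEZH2 samples and fell with DZNep (-1.47, adjusted p = 0.0022). Adenosine kinase ADK, which clears the adenosine that AHCY releases, fell with DZNep (-1.49, adjusted p = 0.00062) and with shEZH2 (-0.71, adjusted p = 0.048). AHCY, the target of DZNep, read 195 and 159 in the control samples, 129 and 111 in the DZNep samples and 167 and 170 in the shEZH2 samples, and its -0.62 with DZNep did not pass (adjusted p = 0.051). The list of COMPASS core subunits gave 2 rises and 2 falls of 9. Among its rises is KDM6A, the demethylase left out of the members. Only treated samples of KDM6A reached the filter value of 10, so that some rise was built into its testing. Further SET domain enzymes gave 2 rises of 6, and the DNMT and PRMT partners 1 rise and 1 fall of 8.

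Fold changes of the members went with the base composition of their transcripts. Over the 64 members with an annotated canonical transcript, Spearman's correlation of the log2 fold change with GC content was 0.35 with DZNep and 0.44 with shEZH2, and over 9478 tested genes it was 0.25 and 0.35. The correlation with transcript length was -0.02 and 0.20 over members. These are descriptions over genes that share the same 6 libraries. When each sample was corrected for length and GC, 16 members were higher and 14 lower with DZNep, and 8 higher and 6 lower with shEZH2. The share of all genes called under this correction is not given here, so these counts stand without a background. Of the 16 higher with DZNep, 11 were also called in the main fit. KDM7A, METTL2B, NSD1, SETD2 and SETD7 were added as higher, and NSUN5P1 and NSUN5P2 could not be fitted. Added as lower with DZNep were KDM1A, KDM4B, METTL22, METTL3, SETD3 and SMYD3. Under this correction METTL23 stood at -2.44 and METTL12 at -2.00 with DZNep, METTL13 at 1.06, METTL1 at 0.69, NSUN5 at 0.49, PRMT6 at 0.52, and CARM1 at 0.38, all called. METTL17 (0.19, adjusted p = 0.093), METTL4 (-0.38, adjusted p = 0.060), SETD8 and SMYD5 were no longer called with DZNep. The part of composition in the fold changes was otherwise not tested.

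**Figure D5:**
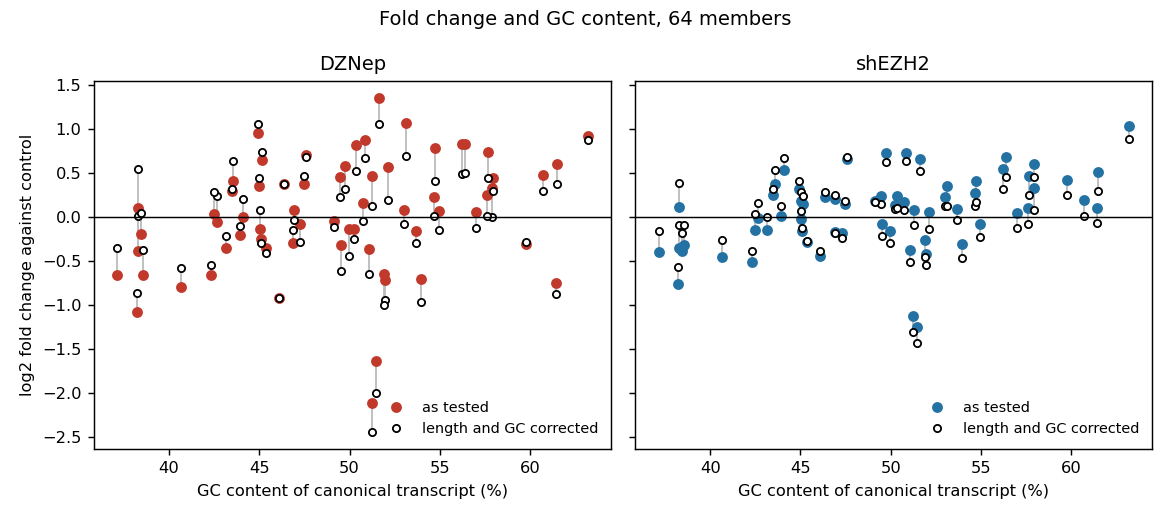
Log2 fold change against control (y axis) of 64 members against the GC content of the canonical transcript (x axis, percent) as tested (coloured) and after correction of each sample for length and GC (open), with DZNep (left) and shEZH2 (right). METTL23 moves from -2.11 to -2.44 with DZNep, and most members with high GC move down.

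The 19 symbols that met the name rule but not the value filter were KDM4D, KDM8, KMT2B, KMT2E, METTL15, METTL18, METTL20, METTL21A, METTL21B, METTL25, METTL8, NSUN3, NSUN6, NSUN7, PRMT5-AS1, SETD1A, SETD1B, SETD9 and SETDB2. Just inside the filter KDM7A read 7 and 10 in the control samples, 7 and 13 in the DZNep samples and 9 and 10 in the shEZH2 samples. Just outside it METTL15 read 9 and 16, 5 and 5, and 9 and 8, and KMT2B read 6 and 6, 5 and 6, and 11 and 7. At such values a rounding step is a large part of the value.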

How the data were processed

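RNA-Seq of 6 samples was used, 2 each of control, DZNep and shEZH2, grouped by the sample labels. Stranded libraries were made by the authors after depletion of ribosomal RNA, and fastp, STAR (GRCh38) and RSEM served for trimming, alignment and quantification; for STAR and RSEM the version is not given in the sources used here. The deposited values are a score: whole numbers that the authors scaled to a common total per sample, over symbols partly older than the annotation named in the methods. The plan named limma, to be replaced by a count test only if the values were read counts. Because they are not, limma was kept. No column was left unused (0).

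Values were divided by unweighted TMM factors (0.92 to 1.12; trims of 30% and 5%), log2(value + 1) was taken, and limma 3.58.1 (R 4.3.3; lmFit, eBayes with trend) was fitted to 9671 genes that reached 10 in 2 or more samples, all 6 samples in 1 fit. The log2 fold changes understate those of low genes. Tests are two-sided and adjusted by Benjamini-Hochberg over all genes tested; called means an adjusted p under 0.05. The script was checked on simulated data. Coordinates are from GENCODE v44 by symbol or older symbol; 64 members matched. Promoter windows were read from GRCh38 at canonical starts.

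Members, lists and the rule for named genes were chosen with earlier results of these data known. The rule named every member with an adjusted p under 0.05 and an absolute log2 fold change of at least 1, the extreme members of each role, a list of well-studied enzymes and EZH2; other called members are named as counted. PRMT2, PRMT6, PRMT9 and other members outside it, and of the other genes WDR4, WTAP, RBM15, RBM15B, PCIF1, ALKBH5, UHRF1, KDM6A and JMJD6, were named after their values were seen. Among the called genes of the other lists, a further gene is counted but its values are not reported here. Alternatives changed the scaling, filter, pseudocount, variance model, samples in the fit, call thresholds and length and GC correction, averaged the shEZH2 samples, added a replicate block and left out each sample.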

Additional observations from a re-analysis of the deposited data

How the results depend on the processing

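No called member reversed in any alternative: of the refitted calls 404 still passed the threshold and 114 did not. The numbers of members called were less stable than the directions. With only the groups compared in the fit, 9 were higher and 4 lower with DZNep, 6 higher with shEZH2 and 3 lower between shEZH2 and DZNep. On the values as deposited the counts were 5 lower with DZNep, 7 higher with shEZH2 and 4 lower between treatments. With length and GC correction they were 14 lower with DZNep, 8 higher and 6 lower with shEZH2, and 9 and 6 between treatments; NSUN5P1 and NSUN5P2 could not be fitted there. With the shEZH2 samples averaged, 9 and 4 were called with DZNep and 0 in every other comparison. The thresholds of the study gave 3 and 3 with DZNep and 0 higher between treatments. Both other filters left 0 higher with shEZH2, and a pseudocount of 5 gave 1 lower between treatments. Shares over all genes are not given here for the refits, and the cause of these shifts was not tested. Leaving out 1 sample at a time gave 5 to 19 higher and 4 to 9 lower with DZNep, 0 to 6 higher and 0 to 3 lower with shEZH2, and 0 to 2 higher and 0 to 3 lower between treatments.

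The deviations of same-numbered replicates correlated at 0.786 for control and DZNep, -0.024 for control and shEZH2 and -0.038 for DZNep and shEZH2, so same-numbered control and DZNep samples deviated together and those of shEZH2 did not. The labels give no shared culture or day for a number, and with 2 numbers this is a hint from the data only, so the fit without the block was kept. With the replicate block 20 members were higher and 12 lower with DZNep, 11 higher and 4 lower with shEZH2, and 5 higher and 6 lower between treatments. It added EHMT2, KDM5C, METTL7B and PRMT5 higher and KDM4B, METTL10 and METTL22 lower with DZNep. With the block and the length and GC correction together the counts were 22 and 15, 12 and 10, and 11 and 9. Depth is unknown for these scaled values, which limits what can be said of members near 10.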
